A study of Homo sapiens with 28 samples.

Results

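The 10 genes described here make, carry, degrade or sense retinoic acid: RDH10, DHRS3, ALDH1A2, ALDH1A3, CYP26A1, CYP26B1, CRABP2, RARA, RARB and RARG. They were taken by symbol from the 26346 genes of the deposited count files. Of the 10, 9 passed the filter on low counts, as did 14220 of all 26346 genes, and CYP26A1 was left without a test. Polyadenylated RNA was measured in 28 libraries of AN3CA, a line from a human carcinoma of the endometrium, with constructs of ARID1A, constructs of ARID1B or an empty vector. These proteins are alternative subunits of the BAF chromatin remodelling complex, and the libraries ask how the RNA of the cells differs between the constructs.

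The empty vector had 4 libraries and each construct had 2. For ARID1A these were the unaltered protein (WT), a pair of truncations called CBR and delIDR1, DBDmut with its mutated ARID domain, a hybrid that carries the disordered region of the helicase DDX4, an AQG scramble (AQGscram) and 42YS, whose name the labels write in more than 1 order. The ARID1B constructs were WT, M2 (S320_G327del), A457_G461del, Block13del and Block9del. No group had a treatment or a time point. The promoter of the vector, and whether a line was a clone or a pool, are not given in the sources used here. Nothing in the labels says that replicates were separate cultures, so p-values measure the spread between libraries, which may be technical.

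Retinoic acid is made from retinol by successive oxidations, with retinal between them. RDH10 turns retinol into retinal, DHRS3 runs that step backwards, and the retinal dehydrogenases ALDH1A1, ALDH1A2 and ALDH1A3 turn retinal into retinoic acid. CYP26A1 and CYP26B1 degrade it, CRABP2 carries it to the nucleus, and the receptors RARA, RARB and RARG bind DNA with retinoid X receptors at repeated half-sites near their targets. CYP26A1, RARB, DHRS3 and CRABP2 are themselves known to respond to retinoic acid in many cells. In the endometrium, ALDH1A2 is best known from the stroma.

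The sequences upstream of 3 members are shown because 2 of them hold the element through which retinoic acid receptors are known to act. They are the 250 bases before a RefSeq start on GRCh38.p14, 5′ to 3′ on the strand of the gene. Capitals mark a direct repeat of half-sites with a spacer of 5 bases.
RARB, chr3:25428013-25428262, plus strand: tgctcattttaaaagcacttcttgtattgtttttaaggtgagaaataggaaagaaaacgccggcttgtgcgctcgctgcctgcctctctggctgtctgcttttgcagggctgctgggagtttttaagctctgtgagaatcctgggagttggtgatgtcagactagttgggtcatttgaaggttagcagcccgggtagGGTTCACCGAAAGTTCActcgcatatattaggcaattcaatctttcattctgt
CYP26A1, chr10:93073643-93073892, plus strand: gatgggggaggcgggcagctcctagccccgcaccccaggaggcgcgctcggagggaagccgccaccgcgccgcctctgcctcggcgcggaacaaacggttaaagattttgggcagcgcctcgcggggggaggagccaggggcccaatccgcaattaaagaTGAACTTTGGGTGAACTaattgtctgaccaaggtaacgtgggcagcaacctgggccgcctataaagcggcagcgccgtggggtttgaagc
ALDH1A2, chr15:58065712-58065961, minus strand: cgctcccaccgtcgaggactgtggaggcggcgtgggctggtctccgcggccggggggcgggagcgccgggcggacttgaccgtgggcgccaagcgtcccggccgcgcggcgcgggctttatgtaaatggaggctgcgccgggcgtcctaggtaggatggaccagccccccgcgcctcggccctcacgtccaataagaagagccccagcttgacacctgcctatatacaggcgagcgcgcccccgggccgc

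The half-site AGGTCA was searched with its variants, which were AGTTCA first, then GGTTCA, and lastly GGGTCA, on both strands, in direct repeats with spacers of 1, 2 or 5 bases and with any mix of the 4. Windows were at hand for 9 of the 10 members, with 18 starts in all. The repeat with a spacer of 5 was in 2 of the 18 windows, and in 26 of all 35116 windows of 250 bases (0.074%). In 1 of the 4 windows of RARB it read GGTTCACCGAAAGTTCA and began 53 bases before the start. In 1 of the 2 windows of CYP26A1 it lay on the opposite strand, began 90 bases before the start and read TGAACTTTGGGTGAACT on the strand of the gene. A repeat with a spacer of 1 or 2 bases was in none of the 18, against 0.0968% and 0.0313% of all windows. Neither window of ALDH1A2 held any of these repeats, which says only that these letters are not in those 250 bases. These matches are descriptions of sequence and not sites of binding.

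The reads on genes numbered 16.6 to 27.9 M per library, with a median of 22.05 M. They fell into 3 sets by the share of stranded reads on the expected strand, which the labels do not mention. Set 1 (84.5 to 87.8%) held replicates 1 and 2 of the empty vector with DBDmut, delIDR1, CBR and ARID1A WT, set 2 (98.1 to 98.6%) held replicates 3 and 4 of the empty vector with M2, ARID1B WT and the DDX4 hybrid, and set 3 (96.7 to 97.9%) held the other 5 constructs and no empty vector, so that set and construct cannot be told apart there. ARID1A read 288 ± 12.5 CPM (counts per 1e6 reads, after scaling; SD, n = 4) with the empty vector and 733 ± 43.8 (n = 2) with ARID1A WT, and ARID1B read 98 ± 6.54 and, with ARID1B WT, 3597 ± 225. In AQGscram libraries ARID1A read 247 ± 52.6 CPM, no higher than with the empty vector. It read 374 CPM with 42YS, 523 with the DDX4 hybrid, 589 with delIDR1, 665 with DBDmut and 1017 with CBR. ARID1B read 4250 CPM with M2, 2236 with A457_G461del, 883 with Block13del and 344 with Block9del. The RNA of the constructs was thus uneven, and its part in the changes below was not tested. Of 12 markers of endometrial epithelium, 6 stayed under 1 CPM in every library. The summed level of the 12 was 18.8 to 26.2 CPM with the empty vector, 61.9 to 62.3 with ARID1A WT, 62.4 to 64.3 with ARID1B WT and 104 to 110 with M2. KRT18 had the widest range in this sum, 9.89 to 83.2 CPM over all 28 libraries. No other marker of the list exceeded 13.3 CPM (MSX1), and CDH1 and EPCAM reached at most 1.63 and 0.809 CPM. Of 5 stromal markers 3 stayed under 1 CPM in every library: HAND2 had no read, DCN 3 and LUM 1 over all 28. PDGFRA reached at most 3.46 CPM, and the summed level of the list, 2176 to 6614 CPM, was nearly all VIM, which many cell lines express. Markers of blood cells and endothelium summed to at most 0.373 and 0.585 CPM. The part of the epithelial markers in the results was not tested.

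With the empty vector, levels per kb of merged exon length (exon lengths from GENCODE 29 on GRCh38) ran from 30.3 CPM per kb for RARG and 23.5 for DHRS3, through 10.6 for ALDH1A2, 5.72 for RARA, 4.58 for RDH10 and 3.79 for RARB, to 0.33 for CRABP2, 0.0563 for CYP26A1 and 0.0357 for CYP26B1. ALDH1A3 had no read. RARG was thus the leading receptor of these cells and ALDH1A2 the leading retinal dehydrogenase among the members. All levels below are CPM or reads of 1 gene across libraries.

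RDH10, which catalyses the first oxidation, was higher with ARID1A WT and DBDmut, and lower with the truncations CBR and delIDR1. It read 20.6, 18.1, 17.7 and 19.2 CPM in the 4 empty vector libraries. ARID1A WT gave 34.8 and 34.4 CPM, DBDmut 49.9 and 46.4, CBR 16.6 and 15.6, and delIDR1 14.7 and 12.8. Both WT and both DBDmut libraries lay above every empty vector library, and all CBR and delIDR1 libraries lay below. A fold change below is a log2 ratio with its standard error, from edgeR's quasi-likelihood test over all 28 libraries, with p adjusted by Benjamini-Hochberg over the 14220 genes and called at 0.05. RDH10 rose by 0.87 ± 0.0701 with ARID1A WT (1.83-fold, adjusted p = 3.98e-09) and by 1.35 ± 0.0683 with DBDmut (2.55-fold, adjusted p = 5.82e-12). In these bulk libraries fewer cells with the RNA and less RNA per cell cannot be told apart.

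The drop of RDH10 was -0.46 ± 0.0758 with delIDR1 (adjusted p = 5.08e-05) and -0.23 ± 0.0746 with CBR (adjusted p = 0.0125). The CBR call was lost when only CBR and empty vector libraries were fitted (adjusted p = 0.158) and without CBR replicate 2 (0.1). With ARID1B, RDH10 read 23.2 and 23.4 CPM for WT and 35.6 and 33.4 CPM for M2, and the DDX4 hybrid gave 23.2 and 23.7. All of these lay above the empty vector, with log2 changes of 0.30 for ARID1B WT, 0.87 for M2 and 0.31 for the hybrid, each called. In set 3, A457_G461del read 28.8 and 26.1 CPM, Block13del 26.8 and 26.5 and Block9del 24.0 and 25.6, each called higher (0.54, 0.49 and 0.39). AQGscram (21.8 and 20 CPM) and 42YS (20.9 and 20.5) overlapped the empty vector and were not called. Fits of only the groups compared ended the calls for ARID1B WT (adjusted p = 0.0579), the hybrid (0.0919) and Block9del (0.0565).

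RDH10 did not differ detectably between the empty vector pairs (-0.07 ± 0.0855 for replicates 3 and 4 against 1 and 2, adjusted p = 0.533). Its change against the pair of the same set was therefore close to that against all 4, at 0.84 for ARID1A WT, -0.27 for CBR, -0.50 for delIDR1, 1.31 for DBDmut and 0.90 for M2. Between constructs of 1 set, RDH10 was lower with CBR than with ARID1A WT (-1.11 ± 0.0837, adjusted p = 3.78e-09) and lower with delIDR1 (-1.34 ± 0.0846, adjusted p = 5.4e-10). DBDmut exceeded WT by 0.48 ± 0.0798 (adjusted p = 0.000608), and M2 exceeded ARID1B WT by 0.56 ± 0.0816 (adjusted p = 9.55e-05).

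DHRS3, which reduces retinal back to retinol, differed between the empty vector pairs by about as much as it did between constructs and controls. Replicates 1 and 2 read 56.0 and 55.9 CPM, and replicates 3 and 4 read 24.9 and 24.6, a difference of -1.17 ± 0.0743 (adjusted p = 6.29e-13). Every construct library lay between 14.9 and 32.6 CPM, below the first pair. In set 1, ARID1A WT read 23.9 and 22.4 CPM, CBR 20.7 and 20, delIDR1 20.7 and 19.9 and DBDmut 27.5 and 24.8. Against replicates 1 and 2, DHRS3 fell by 1.28 ± 0.0735 with WT, 1.46 ± 0.0732 with CBR, 1.46 ± 0.073 with delIDR1 and 1.10 ± 0.0712 with DBDmut, all called.

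Set 2 gave another picture for DHRS3. ARID1B WT read 20.4 and 20.2 CPM, the DDX4 hybrid 25.0 and 23.6, and M2 32.6 and 30.4. Against replicates 3 and 4, ARID1B WT was lower by -0.28 ± 0.084 (adjusted p = 0.00598), M2 was higher by 0.35 ± 0.0777 (adjusted p = 0.000488), and the hybrid was not called (-0.03 ± 0.079). Against all 4 empty vector libraries DHRS3 was called lower in 10 of 12 constructs, with log2 changes of -1.40 to -0.37 over the 12. Each of these 10 calls was lost in a fit of only the groups compared, where adjusted p was 0.11 for Block9del and higher for the others. The calls were also lost for ARID1A WT without either WT library (0.0603 and 0.101), for the hybrid without any of its own libraries or empty vector replicate 1 or 2 (0.0622 to 0.13), and for 42YS and AQGscram without their replicate 1 (0.0735 and 0.101).

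ALDH1A2, which makes retinoic acid from retinal, showed the widest range of the members, from 1.54 CPM in a DBDmut library to 64.3 in an empty vector library. Empty vector replicates 1 to 4 read 56.9, 64.3, 33.4 and 31.3 CPM. With ARID1A WT it read 4.57 and 5.11 CPM, with CBR 6.03 and 6.01, with delIDR1 2.79 and 3.01, and with DBDmut 1.54 and 2.03. All 8 of these libraries lay far below every empty vector library. The 4 constructs, with 2 libraries each, did not overlap each other, but most differences among those tested were not called. In edgeR's test the adjusted p was 0.422 for CBR against WT, 0.083 for delIDR1 against WT and 0.0545 for CBR against delIDR1. That fit holds the 4 empty vector libraries as 1 group, so their spread enters the error of these comparisons too. A missing call thus does not show that the levels were alike. DBDmut was called below WT (adjusted p = 0.0212), with the limits given further below.

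The fall of ALDH1A2 against the 4 empty vector libraries was -3.27 ± 0.255 with ARID1A WT (9.61-fold, adjusted p = 2.53e-09), -2.95 ± 0.243 with CBR (7.72-fold), -4.01 ± 0.27 with delIDR1 (16.0-fold) and -4.70 ± 0.293 with DBDmut (26.1-fold, adjusted p = 1.55e-10). Against replicates 1 and 2 alone, which belong to the same set, the falls were -3.64, -3.33, -4.38 and -5.08. None of these 4 calls was lost under any alternative run or with any library left out. The empty vector pairs themselves differed by -0.91 ± 0.0782 (adjusted p = 2.18e-10).

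ARID1B WT, at 11.5 and 10.9 CPM, also lay below every empty vector library. ALDH1A2 fell there by 2.06 ± 0.226 (4.13-fold, adjusted p = 4.85e-07), and by 1.52 ± 0.0978 against its own pair (2.88-fold). The M2 deletion (61.8 and 57.4 CPM) and the DDX4 hybrid (46.5 and 47.2) overlapped the 4 empty vector libraries and were not called against them (0.35 ± 0.189 and 0.01 ± 0.192). Both lay above the pair of their own set, by 0.88 ± 0.0778 for M2 (adjusted p = 3.33e-10) and 0.54 ± 0.0786 for the hybrid (adjusted p = 2.95e-06). M2 exceeded ARID1B WT by 2.41 ± 0.245 (5.30-fold, adjusted p = 1.56e-06), within 1 set.

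In set 3, ALDH1A2 read 41.9 and 37.2 CPM with AQGscram, 21.6 and 19.2 with 42YS, 19.8 and 21.5 with A457_G461del, 27.4 and 28.9 with Block13del and 25.3 and 28.8 with Block9del. The last 4 lay below every empty vector library, and AQGscram fell between the pairs. Against all 4 empty vector libraries the changes were -1.19 for 42YS, -1.18 for A457_G461del, -0.73 for Block13del and -0.79 for Block9del, each called, and -0.24 ± 0.195 for AQGscram, not called. A fit of only the groups compared ended the 4 calls (adjusted p = 0.0814 to 0.214). AQGscram was lower than replicates 1 and 2 (-0.62) and higher than replicates 3 and 4 (0.29), both called, so its direction rests on the choice of control libraries. Between constructs, 42YS was below AQGscram (-0.95 ± 0.23, adjusted p = 0.00794), a call lost without 42YS replicate 2 (adjusted p = 0.0833). The Block13del and Block9del calls were each lost without replicate 1 of that construct (adjusted p = 0.076 and 0.0738). Against replicates 3 and 4 alone the changes shrank to -0.66 for 42YS, -0.64 for A457_G461del and -0.26 for Block9del, each called, and to -0.19 for Block13del, not called (adjusted p = 0.0633).

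**Figure D1:**
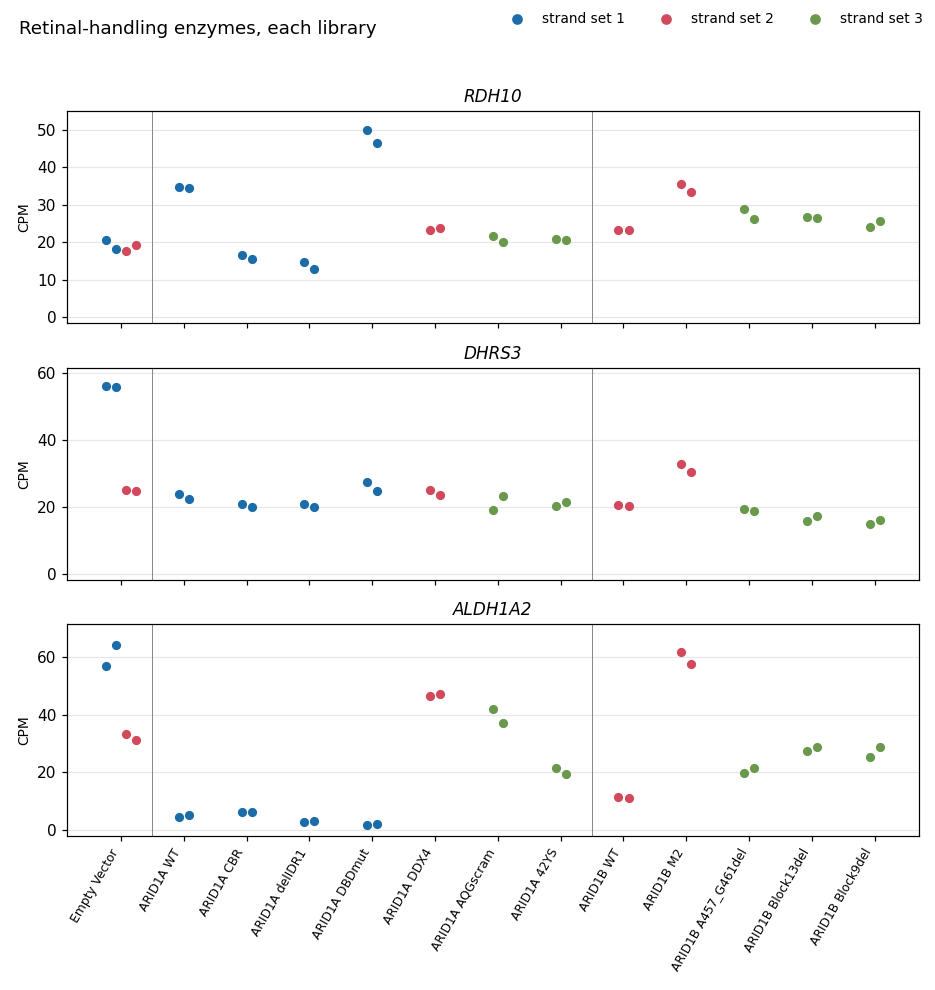
Level of RDH10, DHRS3 and ALDH1A2 in CPM (vertical axes, from 0) in each of 28 libraries, by construct (horizontal axis), coloured by strand set. ALDH1A2 sits at 1.54 to 6.03 CPM in the 8 libraries of ARID1A WT, CBR, delIDR1 and DBDmut, RDH10 is highest with DBDmut, and the empty vector pairs split in DHRS3 and ALDH1A2.

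ALDH1A3, another retinal dehydrogenase, had no read in any of the 4 empty vector libraries. ARID1A WT gave 12 and 12 reads, ARID1B WT 14 and 17, and M2 10 and 3. The DDX4 hybrid gave 2 and 3 reads, A457_G461del 1 and 4, delIDR1 1 and 1, Block13del 1 and 1, and Block9del 1 and 0, while CBR, DBDmut, AQGscram and 42YS gave none. Set against 3 counts over the 4 empty vector libraries, the level was at least 16.1-fold higher with ARID1A WT, at least 20.3-fold with ARID1B WT and at least 6.91-fold with M2. The 3 calls had adjusted p of 4.32e-05, 2.19e-05 and 0.000785, and they were kept in each alternative fit that tested the gene and with each library left out.

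ALDH1A3 was thus read at both WT constructs, where ALDH1A2 was low, and at most 2 reads over both libraries were found with CBR, delIDR1 or DBDmut, where ALDH1A2 was also low. ARID1A WT exceeded CBR at least 9.20-fold and DBDmut at least 8.85-fold (adjusted p = 0.000245 and 0.00207), and delIDR1, with 2 reads, by a ratio of 14.1 (95% counting interval 3.5 to 123; adjusted p = 0.00149). The calls for the DDX4 hybrid and A457_G461del, with 5 reads each, were lost in DESeq2 (adjusted p = 0.0639 and 0.0536), against replicates 3 and 4 alone in edgeR (0.0735 and 0.0674), and without replicate 2 of either construct (adjusted p = 0.0903 and 0.212) or replicate 1 of the hybrid (0.0544). Even with ARID1B WT the level was 0.786 CPM, so these values rest on 31 reads or fewer.

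CYP26B1, which degrades retinoic acid, was at 2 to 4 reads with the empty vector and was higher with 7 of 12 constructs. The empty vector gave 4, 3, 4 and 2 reads. ARID1A WT gave 20 and 23 reads, CBR 12 and 13, delIDR1 9 and 14, DBDmut 16 and 10, ARID1B WT 11 and 23, M2 33 and 27, and A457_G461del 9 and 16. All 14 of these libraries lay above every empty vector library. The rises were 2.70 ± 0.34 with ARID1A WT (6.52-fold, adjusted p = 2.14e-06), 2.31 ± 0.355 with ARID1B WT (4.90-fold), 2.83 ± 0.323 with M2 (7.15-fold, adjusted p = 6.36e-07), and 1.54 to 1.83 with the other 4.

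The empty vector pairs did not differ detectably in CYP26B1 (0.19 ± 0.704), and its rise was 2.78 with ARID1A WT, 2.22 with ARID1B WT and 2.73 with M2 against the pair of the same set. The DDX4 hybrid (4 and 5 reads), AQGscram (3 and 3), 42YS (6 and 5), Block13del (7 and 7) and Block9del (5 and 5) were not called. CYP26B1 was lower with the hybrid than with ARID1A WT (-2.73 ± 0.386, adjusted p = 1.69e-05). CBR and delIDR1 were below ARID1A WT by -0.98 ± 0.326 and -1.13 ± 0.33, calls that DESeq2 did not make (adjusted p = 0.0969 and 0.0632) and that were lost without WT replicate 1 (0.0823 and 0.057), without any of the other 3 libraries for CBR (0.0517 to 0.108), and without delIDR1 replicate 1 (0.123). Against the empty vector, the call for DBDmut was lost without its replicate 1 (adjusted p = 0.0787), and those for delIDR1 and A457_G461del without their replicate 2 (0.13 and 0.194).

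CYP26A1, the other degrading enzyme, gave 61 reads over all 28 libraries and at most 7 in any of them. Empty vector replicates 1 to 4 gave 4, 7, 1 and 0 reads, the DDX4 hybrid 5 and 6, AQGscram 5 and 4, and M2 4 and 3. ARID1A WT gave 1 and 0. CYP26A1 was under the filter on low counts and was not tested. Some ratios of its summed reads had 95% counting intervals above 1, such as 11 reads in empty vector replicates 1 and 2 against 1 in replicates 3 and 4 (8.25, 1.2 to 355) and against 1 with ARID1A WT (9.54, 1.39 to 411), and 9 with AQGscram against 1 with 42YS (9.11, 1.26 to 399). These intervals cover counting error only and not the spread between libraries.

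CRABP2, which carries retinoic acid to its receptors, was higher with both WT constructs. Empty vector replicates 1 to 4 gave 11, 15, 0 and 5 reads. ARID1A WT gave 42 and 51 reads, CBR 31 and 33, delIDR1 37 and 35, and ARID1B WT 34 and 38, all above every empty vector library. The rises were 2.61 ± 0.467 with ARID1A WT (6.68-fold, adjusted p = 0.000133), 1.87 ± 0.494 with CBR, 2.01 ± 0.485 with delIDR1 and 2.21 ± 0.484 with ARID1B WT (5.04-fold, adjusted p = 0.00113). A fit of only the groups compared ended the 4 calls (adjusted p = 0.0501 to 0.105).

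The remaining CRABP2 values were 14 and 18 reads with DBDmut, 18 and 24 with the DDX4 hybrid, 11 and 25 with M2, and 2 to 13 in the 10 libraries of set 3. None of these 8 constructs was called against the 4 empty vector libraries. The empty vector pairs differed by -1.93 ± 0.741 (adjusted p = 0.0284), a call lost without replicate 2 or replicate 3. Against replicates 1 and 2, the rises in set 1 were smaller, at 2.03 ± 0.372 with ARID1A WT (4.13-fold), 1.30 ± 0.405 with CBR (2.47-fold) and 1.43 ± 0.395 with delIDR1 (2.72-fold), each called. Against the 5 reads of replicates 3 and 4, the hybrid was higher by 2.31 ± 0.678, M2 by 2.26 ± 0.694 and ARID1B WT by 3.56 ± 0.582, each called.

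**Figure D2:**
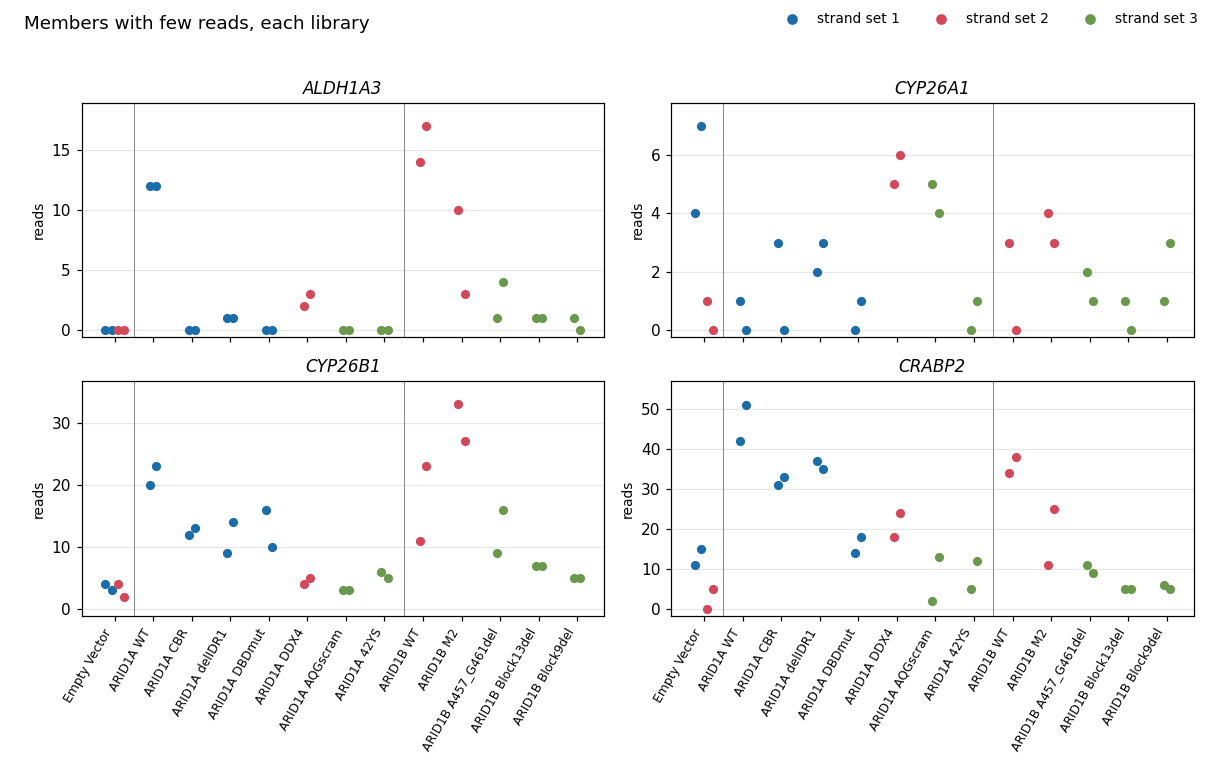
Reads of ALDH1A3, CYP26A1, CYP26B1 and CRABP2 (vertical axes, from 0) in each of 28 libraries by construct, coloured by strand set. ALDH1A3 is at 0 with the empty vector and at 12 to 17 reads with the WT constructs, and CYP26B1 is highest with M2 at 33 and 27 reads.

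RARA, a retinoic acid receptor, split between the empty vector pairs at 32.1 and 31.2 against 15.8 and 15.9 CPM (-1.0 ± 0.0853, adjusted p = 1.89e-10). ARID1A WT read 20.3 and 20.9 CPM, DBDmut 20.3 and 21.1, CBR 38.0 and 33.5, and delIDR1 32.2 and 28.2. Against replicates 1 and 2, RARA fell by 0.62 ± 0.0798 with WT and 0.61 ± 0.0785 with DBDmut, rose by 0.17 ± 0.073 with CBR, and was not called with delIDR1 (-0.07 ± 0.0742). ARID1B WT read 29.8 and 30.6 CPM, M2 34.9 and 37.6, and the DDX4 hybrid 23.7 and 21.1, all above replicates 3 and 4, by 0.93 ± 0.0868, 1.19 ± 0.0834 and 0.50 ± 0.087. RARA was thus lower than its own pair with ARID1A WT and higher with ARID1B WT.

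Against all 4 empty vector libraries, RARA was called for CBR (0.57 ± 0.198, adjusted p = 0.0199), M2 (0.60 ± 0.197, adjusted p = 0.0181) and Block9del (-0.60 ± 0.212, adjusted p = 0.0318) and for no other construct. The 3 calls were lost in a fit of only the groups compared (adjusted p = 0.225 to 0.337), and without CBR replicate 1 (0.159), either M2 library (0.0611 and 0.112), either Block9del library (0.121 and 0.159) or empty vector replicate 1 or 2 for Block9del (0.107 and 0.0941). Against replicates 3 and 4 alone, Block9del was at 0.00. In set 3, RARA read 25.4 and 26.6 CPM with A457_G461del and 15.4 to 19.3 CPM with the other 4 constructs. Within set 1, CBR was above WT by 0.79 ± 0.237 (adjusted p = 0.00973), lost without CBR replicate 1 or WT replicate 1.

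RARB, whose upstream window holds the repeat shown above, split the other way, at 8.07 and 8.90 CPM in empty vector replicates 1 and 2 and 16.7 and 15.1 in replicates 3 and 4 (0.90 ± 0.118, adjusted p = 3.4e-07). Within set 1, ARID1A WT read 22.0 and 19.9 CPM and DBDmut 21.6 and 26.4, while CBR read 8.58 and 8.72 and delIDR1 7.03 and 6.20. WT and DBDmut lay above every empty vector library. Against replicates 1 and 2, RARB rose by 1.30 ± 0.111 with WT (2.47-fold) and 1.5 ± 0.107 with DBDmut (2.83-fold), fell by 0.36 ± 0.132 with delIDR1, and was not called with CBR (0.03 ± 0.126). CBR was below WT by -1.27 ± 0.231 (adjusted p = 0.000174) and delIDR1 by -1.66 ± 0.237 (adjusted p = 2.13e-05). In set 1, RARB and RDH10 were both higher with WT and DBDmut than with the 2 truncations.

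In set 2, RARB read 16.8 and 16.1 CPM with ARID1B WT, 25.1 and 23.2 with M2, and 20.3 and 19.0 with the DDX4 hybrid. Against its own pair, M2 was higher by 0.61 ± 0.10 (adjusted p = 1.13e-05) and the hybrid by 0.31 ± 0.101 (adjusted p = 0.0136), and ARID1B WT was not called (0.05 ± 0.108). In set 3, RARB stayed at 14.2 to 17.9 CPM, within or near the range of replicates 3 and 4. Against all 4 empty vector libraries, RARB was called higher with ARID1A WT (0.80), DBDmut (1.00), the hybrid (0.71) and M2 (1.01) and lower with delIDR1 (-0.86), and each of these calls was lost in a fit of only the groups compared (adjusted p = 0.0625 to 0.218), and that of the hybrid without its replicate 1 (0.0638).

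RARG, the most abundant of the 3 receptors, varied least of the 9 tested members, with group means over 0.42 log2 units and libraries from 80.1 to 112 CPM. The empty vector gave 106, 99.7, 108 and 101 CPM, and the pairs did not differ detectably (0.02 ± 0.0567). It was called lower with delIDR1 (-0.21 ± 0.0543), 42YS (-0.33 ± 0.0545), A457_G461del (-0.24 ± 0.0542) and Block13del (-0.18 ± 0.0542). The 4 calls were lost in a fit of only the groups compared (adjusted p = 0.0586 to 0.228). Those for A457_G461del and Block13del were also lost without replicate 1 of that construct (0.0568 and 0.268). The level with 42YS, 80.1 and 85.4 CPM, was the lowest of the 13 groups.

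As a share of reads on the 3 receptors, RARG held 61.5% with M2 to 76.0% with Block9del over the 13 groups. RARB held 5.93% in empty vector replicates 1 and 2, 15.1% with ARID1A WT and 16.7% with DBDmut, against 5.94% with CBR and 5.21% with delIDR1. RARA held 22.1% in replicates 1 and 2 and 14.8% with ARID1A WT. In set 2, RARA held 11.6% in replicates 3 and 4, 21.1% with ARID1B WT and 23.1% with M2. These shares are not corrected for gene length.

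**Figure D3:**
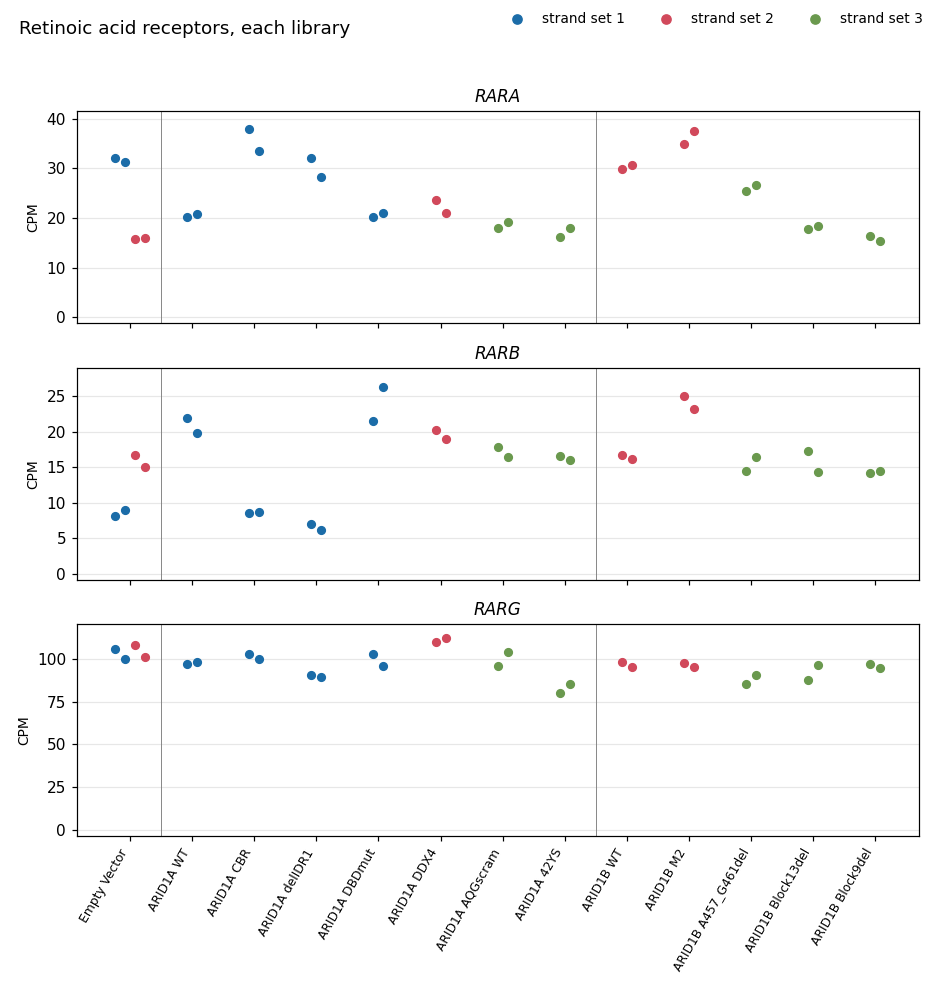
Level of RARA, RARB and RARG in CPM (vertical axes, from 0) in each of 28 libraries by construct, coloured by strand set. RARB is at 19.9 to 26.4 CPM with ARID1A WT and DBDmut and at 6.20 to 8.72 with CBR and delIDR1, while RARG stays between 80.1 and 112 CPM in all libraries.

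Counted over the 9 tested members, 7 were called with ARID1A WT against the 4 empty vector libraries, 5 higher and 2 lower, when 44.5% of all genes were called, 21.1% higher and 23.5% lower. The count was 6 with CBR (53.1% of all genes), 7 with delIDR1 (50.1%), 4 with DBDmut (35.1%), 4 with the DDX4 hybrid (39.5%), 1 with AQGscram (24.7%) and 3 with 42YS (33.8%). With ARID1B it was 6 for WT (43.1%), 5 for M2 (47.3%), 6 for A457_G461del (39.0%), 4 for Block13del (39.3%) and 4 for Block9del (39.0%). Each count is to be read against that share of all genes, and whether the members differ from other genes was not tested. Replicates 1 and 2 of AQGscram disagreed most, with a chi-square per degree of freedom over genes of 30.4. The other groups had 1.18 to 4.97. The part of this spread in the low count with AQGscram was not tested. The median log2 change of the members was 0.80 with ARID1A WT and 0.33 with ARID1B WT, against -0.06 and -0.07 for all genes.

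Against the pair of the same set, 8 of 9 members were called with ARID1A WT (60.7% of all genes), 6 with CBR (59.6%), 7 with delIDR1 (56.3%), 6 with DBDmut (59.0%), 5 with the DDX4 hybrid (50.5%), 7 with ARID1B WT (52.0%) and 8 with M2 (53.1%). M2 had all 8 higher (25.4% of all genes), including RDH10, ALDH1A2, DHRS3 and CYP26B1. The empty vector pairs differed in 5 members, DHRS3, ALDH1A2, CRABP2, RARA and RARB, when 58.5% of all genes differed. For these 5 genes a fold against all 4 libraries averages over a spread between controls of 0.90 to 1.93 log2 units.

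**Figure D4:**
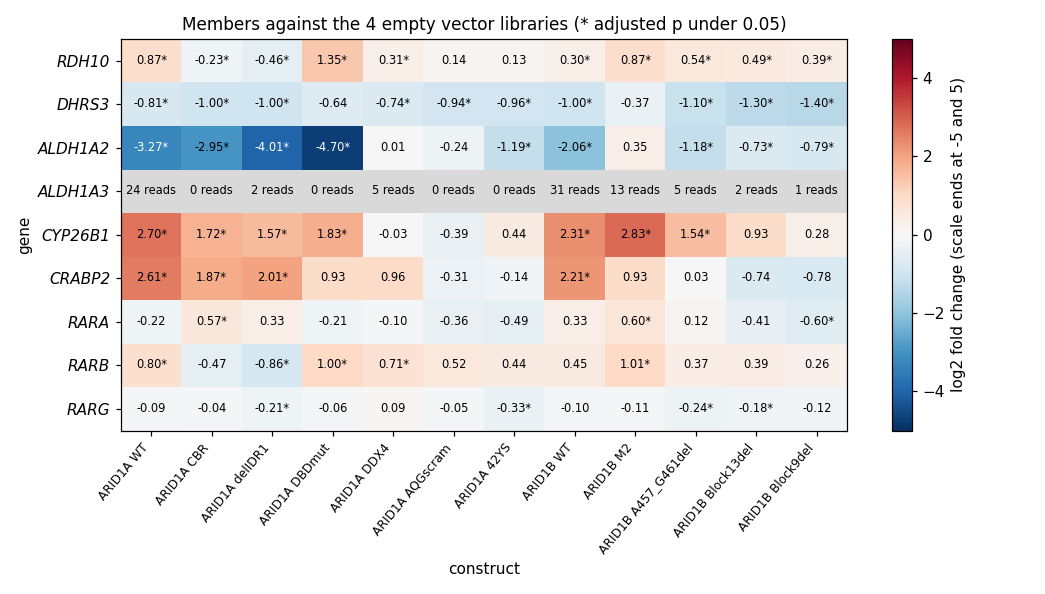
Log2 fold change of 9 members (rows) in 12 constructs (columns) against the 4 empty vector libraries, in red where higher and blue where lower, with an asterisk at an adjusted p under 0.05, and total reads in grey for ALDH1A3, which has no read in the controls. ALDH1A2 carries the deepest falls, -4.70 with DBDmut and -4.01 with delIDR1, and the largest rises shown are 2.83 for CYP26B1 with M2 and 2.70 with ARID1A WT.

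**Figure D5:**
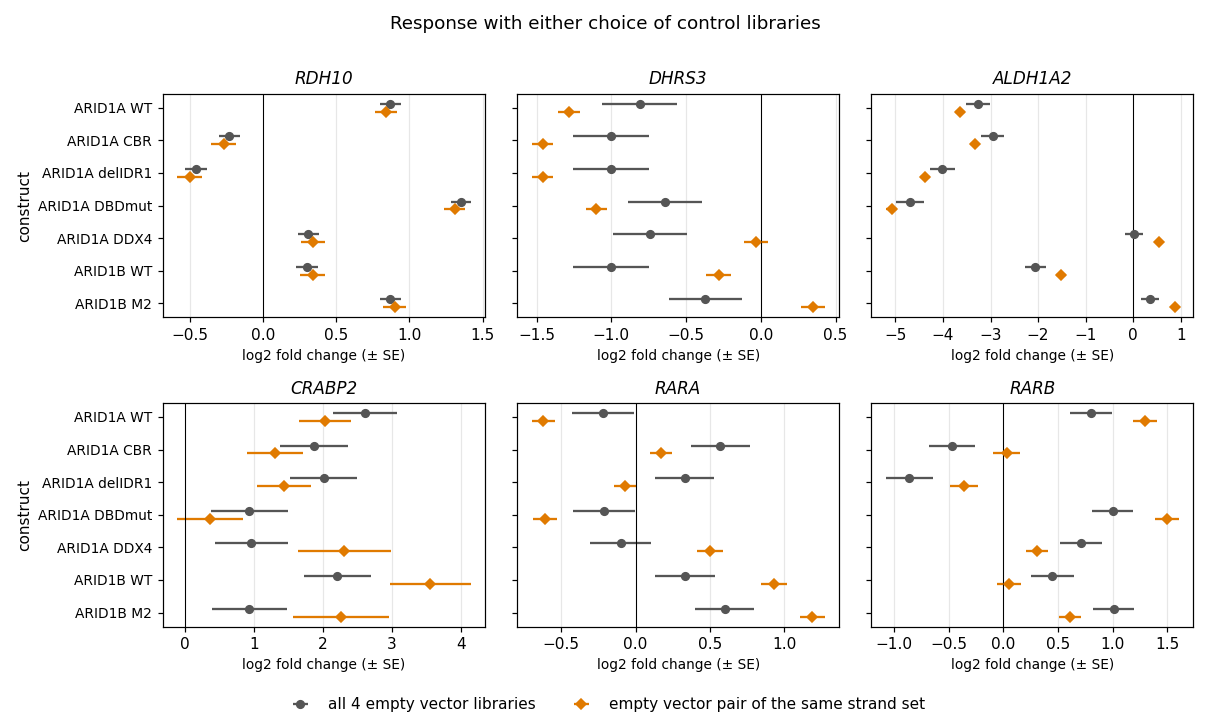
Log2 fold change with its SE (horizontal axes) of 6 members in the 7 constructs of sets 1 and 2 (vertical axes), against all 4 empty vector libraries (grey circles) and against the empty vector pair of the same set (orange diamonds). RDH10 hardly moves with the choice, while RARA with ARID1A WT goes from -0.22 to -0.62 and DHRS3 with ARID1B WT from -1.0 to -0.28.

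Between constructs, 5 members differed between CBR and ARID1A WT (47.5% of all genes, 22.2% higher and 25.3% lower): RARA was higher with CBR, and RDH10, ALDH1A3, CYP26B1 and RARB were lower. Between delIDR1 and WT 4 differed (40.2%), namely RDH10, ALDH1A3, CYP26B1 and RARB, all lower with delIDR1, as were 22.7% of all genes. Between DBDmut and WT 3 differed (5.62%). RDH10 was higher with DBDmut, ALDH1A3 lower, and ALDH1A2 lower (-1.44 ± 0.364, adjusted p = 0.0212), the last lost without any of the 4 libraries (adjusted p = 0.065 to 0.209). Between CBR and delIDR1 none of the 9 was called in edgeR's fit of all libraries (6.45% of all genes). Of the 9, 3 had an unadjusted p under 0.05 (ALDH1A2, RDH10 and RARG). DESeq2 called 1, and an edgeR fit of only these groups called 5.

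M2 differed from ARID1B WT in 3 members (14.3% of all genes), with ALDH1A2 and RDH10 higher and ALDH1A3 lower (adjusted p = 0.0499). DESeq2 did not make the ALDH1A3 call (adjusted p = 0.364). That call was also lost without M2 replicate 2 (0.305) or either ARID1B WT library (0.161 and 0.201). In set 3, 42YS differed from AQGscram in ALDH1A2 and RARG (15.8% of all genes), and the RARG call (-0.27) was lost without 42YS replicate 1 or AQGscram replicate 2 (adjusted p = 0.0961 and 0.0832). Among the 3 ARID1B deletions of set 3, edgeR's fit of all libraries called no member. A457_G461del against Block13del (5.48% of all genes) had 1 at an unadjusted p under 0.05 and 0 by DESeq2. A457_G461del against Block9del (12.6%) had 2 and 1, and Block13del against Block9del (0.471%) had 0 and 0. In edgeR fits of only the groups compared, these comparisons had 2, 4 and 0 members called.

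Across sets, the DDX4 hybrid differed from ARID1A WT in 6 members (36.5% of all genes) and ARID1A WT from ARID1B WT in 2 (13.5%), RDH10 and ALDH1A2. The hybrid was higher in ALDH1A2 and RARG and lower in RDH10, ALDH1A3, CYP26B1 and CRABP2. Its RARG and CRABP2 calls were lost without any of the 4 libraries (log2 differences of 0.18 to 0.20 and -1.81 to -1.51). The RARG call was also lost in DESeq2 (adjusted p = 0.0527), and in edgeR with RLE factors (0.0751), unstranded counts (0.0795) or no filter on low counts (0.206). The ALDH1A2 call between the WT constructs was lost without ARID1A WT replicate 1 or 2 or ARID1B WT replicate 1 (0.0742, 0.051 and 0.0559). Taken as a difference of responses, each against its own empty vector pair, the hybrid differed from ARID1A WT in 6 (50.5%) and ARID1A WT from ARID1B WT in 5 (41.6%). ALDH1A2 fell further with ARID1A WT than with ARID1B WT (-2.11 ± 0.154, adjusted p = 3.75e-11), the response of RARA was lower with ARID1A WT (-1.55 ± 0.118) and that of RARB higher (1.25 ± 0.156). Compared directly, DHRS3, RARA and RARB were called neither between the WT constructs nor between the hybrid and ARID1A WT. Their differences of responses thus rest in large part on the split between the empty vector pairs. The response of RARG differed by 0.03 ± 0.0805 between the WT constructs and was not called.

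Other genes of the pathway were counted from 5 lists with 94 genes, of which 92 were in the files and 58 passed the filter. With ARID1A WT 18 of the 58 rose, 10 fell and 30 were not called against the 4 empty vector libraries, with a median of 0.02 against -0.06 for all genes, of which 44.5% were called (21.1% higher and 23.5% lower). With ARID1B WT 15 rose, 11 fell and 32 were not called (median 0.03 against -0.07), beside 43.1% of all genes called. The counts over the 58 are near the share over all genes, and the empty vector pairs themselves differed in 17 that were higher and 10 that were lower in replicates 3 and 4. In uptake and storage, STRA6, a membrane receptor for retinol uptake, had 2 reads over the 4 empty vector libraries and read 2.20 CPM with ARID1A WT, 6.99 with ARID1B WT and 8.20 with M2. The ratio of counts was 85.8 (95% counting interval 23 to 720) for ARID1A WT and 272 (74.5 to 2254) for ARID1B WT.

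Among the other oxidoreductases, 3 of 10 tested rose and 0 fell with ARID1A WT, beside 21.1% and 23.5% of all genes. ALDH1A1, another retinal dehydrogenase, was at 0 reads in the 4 empty vector libraries and read 4.39 ± 0.821 CPM (n = 2) with ARID1A WT and 6.04 ± 0.932 with ARID1B WT, at least 115-fold and at least 157-fold higher. DBDmut gave 2.35 CPM of ALDH1A1, delIDR1 0.0667 and M2 0.465. With ARID1A WT, ALDH1A1 thus stood near ALDH1A2 (4.84 CPM), on a scale not corrected for length.

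Of 25 tested genes known as responses to retinoic acid, 10 rose and 3 fell with ARID1A WT, and 8 rose and 5 fell with ARID1B WT, beside 44.5% and 43.1% of all genes called in either direction. The empty vector pairs differed in 13 of the 25 (9 higher and 4 lower in replicates 3 and 4; 58.5% of all genes). TGM2, a transglutaminase, went from 0.527 CPM with the empty vector to 178 with ARID1A WT (log2 change 8.29 ± 0.143) and 235 with ARID1B WT (8.69). RET, a receptor tyrosine kinase, went from 1.54 to 29 CPM with ARID1A WT and 6.09 with ARID1B WT, and the adaptor NEDD9 from 0.122 to 14.5 and 3.33. Against its own pair, ARID1A WT had 15 of these 25 genes higher and 4 lower (median 0.57; 60.7% of all genes called), and ARID1B WT 9 higher and 7 lower (median -0.10; 52.0% of all genes called).

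Of 13 tested cofactors of the receptors, 0 rose and 6 fell with ARID1A WT, beside 21.1% and 23.5% of all genes. Of 8 tested binding proteins and receptor partners, 4 rose and 1 fell, the rises including NR2F2 (0.46) and PPARD (0.41). RXRA, a retinoid X receptor named after its values were seen, was not called with ARID1A WT (0.02 ± 0.0563).

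Across the 13 group means of log2 CPM, the genes most like ALDH1A2 were ATP7A (Pearson r = 0.964), SNAP23 (0.951) and FGFR1OP (0.923), and those most like ALDH1A3 were CPN2 (0.934), ADAM33 (0.930) and CHI3L1 (0.927). ALDH1A2 and ALDH1A3 were taken as the members with the widest range of group means, 5.01 and 3.29 log2 units. ATP7A read 6.73 CPM with the empty vector, 3.75 with ARID1A WT and 3.2 with DBDmut. These values are descriptions over groups that share strand sets, and CPN2 and CHI3L1 are at 0 with the empty vector.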

How the data were processed

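RNA of 28 libraries of the AN3CA line was sequenced, and the submitters' processing notes name bcl2fastq, STAR 2.5.2b, Bowtie2 2.29 and hg19. The deposited files hold raw counts per gene in 3 forms of strandedness, and the column for the strand opposite to the read was used. Reads that named no gene (21.6 to 36.3% of a library) were left out. Samples were grouped by the labels into 13 groups, and the members and gene lists were chosen with earlier results of these data known.

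The counts were fitted in R 4.3.3 with edgeR 4.0.16 (filterByExpr by group, TMM factors, quasi-likelihood F test, two-sided, Benjamini-Hochberg over 14220 genes, called at 0.05). CPM use the TMM factors. A fit with 14 groups, the empty vector pairs apart, gave values against the pair of the same strand set, and its counts of calls were added as an alternative after seeing the data. The fit was tested on simulated data in which all empty vector libraries had the same mean for each gene. That test therefore says nothing on the split between the empty vector pairs. Levels of 0 were set against 3 counts over a group, and such bounds and count intervals (95%) cover counting error only.

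All members were named. Up to 3 called genes with the smallest p per pathway list and comparison could be named too (some are not reported here), and for the 2 members with the widest range of group means the 3 genes with the highest correlation. Alternatives were DESeq2 1.42.0, RLE factors, other filters, unstranded counts, either empty vector pair, a replicate block, only the groups compared, and each library left out. Replicate numbers did not pair samples. Windows and promoter sequences come from RefSeq on GRCh38.p14, lengths from GENCODE 29, and both were matched by symbol only. Figures were drawn with matplotlib 3.10.9.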

Additional observations from a re-analysis of the deposited data

Results flagged for a closer look

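The responses of 11 gene and construct combinations differed between 2 constructs, each set against the control pair of the same strand set and tested as a difference of log2 changes (edgeR's quasi-likelihood test, Benjamini-Hochberg over all genes). Between ARID1A WT and ARID1B WT, the difference was -2.11 ± 0.154 for ALDH1A2 (adjusted p = 3.75e-11), 0.50 ± 0.115 for RDH10 (0.000853), -0.99 ± 0.112 for DHRS3 (7.51e-08), -1.55 ± 0.118 for RARA (8.17e-11) and 1.25 ± 0.156 for RARB (3.85e-07). ALDH1A2 fell with both WT constructs and fell further with ARID1A. RARA was lower than its pair with ARID1A WT and higher with ARID1B WT. Compared directly in edgeR's test, the WT constructs were not called different in DHRS3 (0.19 ± 0.29, adjusted p = 0.729), RARA or RARB. For DHRS3 the direct value had the opposite sign. The differences of responses for these genes thus rest in large part on the split between the empty vector pairs.

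Between the DDX4 hybrid and ARID1A WT, the difference was 4.18 ± 0.133 for ALDH1A2 (adjusted p = 1.13e-18), -0.50 ± 0.112 for RDH10 (0.000602), 1.25 ± 0.108 for DHRS3 (4.39e-10), -2.91 ± 0.882 for CYP26B1 (0.00752), 1.12 ± 0.118 for RARA (1.47e-08) and -0.99 ± 0.152 for RARB (5.37e-06). ALDH1A2 and RARA were lower than their pair with ARID1A WT and higher with the hybrid. Compared directly in edgeR's test, the hybrid and ARID1A WT did not differ detectably in DHRS3 (0.07, adjusted p = 0.873), RARA (0.12, 0.731) or RARB (-0.09, 0.776). For these genes the differences of responses thus rest mostly on the split between the empty vector pairs. The 2 constructs of each comparison lie in different strand sets, and the part of the set in these differences was not tested beyond the use of each set's own control pair. Among 9 tests of a single library standing far from the other empty vector libraries, 0 found one. These tests look only for 1 library apart from the rest and could not flag a split between the pairs, as in DHRS3. They do not show that the controls were alike.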

How the results depend on the processing

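No member called in the fit with all 4 empty vector libraries changed direction under any alternative run. ALDH1A2 with AQGscram, not called there, was called lower against replicates 1 and 2 only (-0.62) and higher against replicates 3 and 4 only (0.29). Of the calls of single members, 41 of 76 were kept in fits of only the groups compared, 76 of 82 by DESeq2, 81 of 82 with RLE factors, 78 of 82 with no filter on low counts, 57 of 57 with empty vector replicates 1 and 2 only, 51 of 57 with replicates 3 and 4 only, and 404 of 462 with 1 library left out.

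Some counts of members called moved by over 1.5 times. Where genes needed a mean log2 CPM of 1 or more, which tests 6 members, they were 4 for ARID1A WT, 2 for AQGscram, 3 for ARID1B WT and M2, 3 for CBR and the DDX4 hybrid against ARID1A WT, and 2 for delIDR1 against WT. In fits of only the groups compared they were 4 for ARID1A WT, 2 for CBR, delIDR1, DBDmut and M2, 3 for ARID1B WT, 1 for A457_G461del and Block13del, and 0 for the hybrid, AQGscram, 42YS and Block9del. Between constructs those fits gave 7 for delIDR1 against WT and M2 against ARID1B WT, 5 for CBR against delIDR1, 4 for ARID1A WT against ARID1B WT and A457_G461del against Block9del, 2 for A457_G461del against Block13del and 1 for 42YS against AQGscram. AQGscram had 4 and 42YS 5 with empty vector replicates 1 and 2 only, and AQGscram had 3 and M2 8 with replicates 3 and 4 only. AQGscram had 2 with unstranded counts and with no filter, where 42YS had 5 and CBR against delIDR1 and A457_G461del against Block9del had 1 each, as they had by DESeq2.

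Over 78 pairs of groups, the difference of replicate 1 from replicate 2 had a median correlation of 0.00176 (-0.132 to 0.119). These numbers were thus not taken to pair libraries across groups. In the empty vector the numbers follow the strand set, with replicates 1 and 2 in set 1 and replicates 3 and 4 in set 2. With the replicate number as a block, counts were 4 for AQGscram, 5 for 42YS, 7 for Block13del, 5 for CBR against delIDR1, 4 for ARID1A WT against ARID1B WT, 7 for M2 against ARID1B WT, 2 for A457_G461del against Block13del and 4 against Block9del. All 82 calls of single members were kept. Numbers 3 and 4 occur only in the empty vector, so those libraries did not enter the comparison. Against the empty vector the block run thus used replicates 1 and 2 alone, and it is not a separate check from the run with that pair.

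With 1 library left out, counts ranged from 6 to 7 for ARID1A WT, 5 to 7 for CBR, 6 to 8 for delIDR1, 3 to 5 for DBDmut, 1 to 4 for the hybrid, 0 to 3 for AQGscram, 2 to 5 for 42YS, 6 to 7 for ARID1B WT, 4 to 6 for M2, 4 to 7 for A457_G461del, 2 to 6 for Block13del and 2 to 5 for Block9del. Between constructs they ranged from 3 to 4 for CBR and delIDR1 against WT, 2 to 2 for DBDmut, 4 to 4 for the hybrid, 1 to 2 for ARID1A WT against ARID1B WT and 42YS against AQGscram, and 2 to 3 for M2. For the empty vector pairs they ranged from 4 to 5. A lone library left in a group was assumed to vary like the other groups. The cause of these changes was not tested. Depth limits ALDH1A3, CYP26A1, CYP26B1 and CRABP2, which had at most 51 reads in any library.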
